A study of Homo sapiens with 16 samples.

Results

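Lysosomes are acidic organelles in which hydrolases break down proteins, sugars, lipids and sulfated chains that arrive by endocytosis or autophagy. Their membrane carries heavily glycosylated proteins such as LAMP1 and LAMP2, and a proton pump, the V-ATPase, keeps the lumen acidic. Many of their genes are switched on by the related transcription factors TFEB, TFE3 and MITF, which bind a short DNA element with the core CACGTG.

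The genes described are 52 genes of this organelle, chosen by symbol from the 39007 genes of a deposited expression table. They are 11 genes of membrane proteins and transporters, 12 of proteases, 11 of glycosidases, 5 of sulfatases, 6 of lipid hydrolases and lipid binding proteins, 4 of proton pump subunits and 3 of the transcription factors. The study itself lists 11 of the 52 as lysosome genes of intermediate phase P7, a list it drew from these same libraries, so their direction in P7 is not independent evidence. The remaining 41 genes are therefore counted apart. They are what that choice left over, so their P7 counts may be lowered by it.

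RNA was sequenced from 16 libraries of T24, an established bladder cancer cell line, and of GRC1, a gemcitabine-resistant line grown out of it. Gemcitabine is a nucleoside analogue used in chemotherapy. The study's methods give 1.5 µM gemcitabine for 72 h followed by regrowth as a phase, with 15 phases in all. The groups are P0, the parental T24 cells before any drug, and GRC1 at phases P3 (early), P7 (intermediate) and P15 (late), each with 4 libraries, and all were cultured in the same medium. The titles of all 16 libraries carry the letters NT. The study's methods do not explain these letters or say whether gemcitabine was present when RNA was taken. GRC1 is a single line, so every later phase descends from 1 selection, and time under selection cannot be told apart from the history of that line. Nothing in the labels says that the 4 libraries of a phase came from separate cultures, so the p-values measure only the spread between these libraries, which may be technical.

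Values are log2 of CPM plus 1, called log2 values here, where CPM is the read count of a gene scaled to the same total in every library. A difference of log2 values is a log2 fold change of CPM plus 1, which understates the change of genes with low CPM. Judged by the smallest steps between values, a library held 33.8 to 50.0 M read counts. A gene was tested when its mean over the libraries exceeded 1 CPM, which kept 13249 genes. Phases were compared with limma, p-values were adjusted over all 13249 by Benjamini-Hochberg, and a difference was called at an adjusted p below 0.05. Differences are given with their standard error (SE). Of the 52 lysosome genes, 50 were tested. CLN3, with a mean of 0.367 CPM, and ATP6V0D2, with a mean of 0.0315 CPM, were not. Of the epithelial markers, KRT7, KRT8 and KRT18 were detected in all 16 libraries and CDH1 was at or below 0.0943 CPM in each library. The summed CPM of the 6 epithelial markers was 2074.67 to 2153.42 in P0, 2347.43 to 2484.13 in P3, 1665.75 to 1814.02 in P7 and 673.08 to 750.52 in P15. Of the 9 urothelial markers, GATA3, FOXA1 and PPARG passed the filter and the uroplakins, KRT5 and KRT20 did not, and the sum was 125.02 to 132.29, 77.4 to 84.78, 114.3 to 118.42 and 22.19 to 25.74 in the same order. The sum of 8 fibroblast markers was 7.26 to 8.45, 1.78 to 6.47, 5.57 to 6.54 and 46.61 to 51.71. In P15, COL1A1 was at a log2 mean of 4.64 and COL3A1 at 4.51. PDGFRB was at 1.75 in P15 and 1.90 in P0, and the other fibroblast markers were at or below 0.31 in P15. KRT18, at 9.31, and UPK1A, at 1.57, had their highest means in P15, against the sums of their lists. The sums thus differ in P15 without all markers following, and their part in the P15 comparisons given below was not tested.

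Taken as 1 quantity, the 52 genes were at their highest in P7. Their summed CPM was 0.688 to 0.714% of a library in P0, 0.704 to 0.721% in P3, 0.911 to 0.939% in P7 and 0.535 to 0.568% in P15. The P7 libraries lay above, and the P15 libraries below, those of every other phase. Without LAMP1 the shares were 0.648 to 0.673%, 0.638 to 0.655%, 0.807 to 0.831% and 0.502 to 0.534% in the same order. For the 41 genes outside the study's list they were 0.522 to 0.539%, 0.481 to 0.493%, 0.587 to 0.604% and 0.386 to 0.409%, so that here P3 also lay below P0. Such sums are weighted to the most abundant genes, among them PSAP, CTSB and LAMP1, with means of 991, 764 and 617 CPM. They need not follow most of the genes. Of the 39 tested genes outside the list, 16 were higher and 19 lower in P15 than in P0, beside 45.3% and 40.9% of all tested genes. The samples are bulk RNA, in which fewer cells of a kind and less RNA per cell cannot be told apart.

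**Figure D1:**
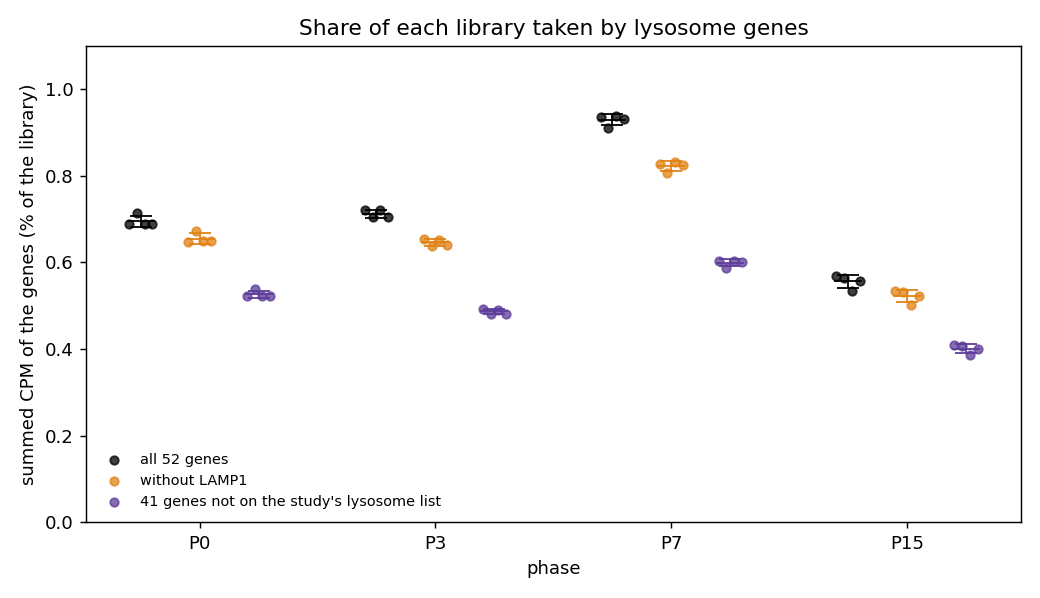
Summed CPM of the lysosome genes as a percentage of the library (y axis) in each of 16 libraries by phase (x axis), for all 52 genes, without LAMP1, and for the 41 genes outside the study's list; bars give the mean and SD of 4 libraries. All 3 sums were highest in P7, where the 52 genes took 0.911 to 0.939%, and lowest in P15, where they took 0.535 to 0.568%.

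The DNA in front of the genes was examined for the element that TFEB, TFE3 and MITF recognise. RefSeq promoter windows on GRCh38.p14, from 250 bases before to 50 bases after the start of the gene, were matched by symbol for 36 of the 52 genes. LAMP2, LAMP3, LAPTM4B, CTSB, CTSK, CTSO, LGMN, HEXA, MANBA, NAGLU, ARSA, SGSH, ASAH1, PSAP, ATP6V0D2 and ATP6V1H had no entry. CACGTG, searched on both strands, occurred in 11 of the 36 windows (30.6%), in 10.0% of the 9714 windows of tested genes and in 7.4% of all 27305. The longer TCACGTG, which contains it, occurred in 27.8% of the lysosome windows and in 5.8% of those of tested genes. LAMP1 held 6 copies of CACGTG. Stretches around the copies are shown 5′ to 3′ on the strand of the gene, with each CACGTG in capitals, for LAMP1, NEU1 and CTSD, which were highest in P7, for MCOLN1, whose P3 and P7 levels were not told apart, and for ATP6V0D1, which was highest in P0.
LAMP1, chr13:113297020-113297238, plus strand, 5 of its copies, from 192 to 28 bases before the start: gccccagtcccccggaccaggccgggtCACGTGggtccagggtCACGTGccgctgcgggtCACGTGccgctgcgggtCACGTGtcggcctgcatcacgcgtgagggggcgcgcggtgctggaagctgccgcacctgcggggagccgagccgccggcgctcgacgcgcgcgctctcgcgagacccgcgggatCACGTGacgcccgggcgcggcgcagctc
NEU1, chr6:31862915-31862974, minus strand, 126 bases before the start: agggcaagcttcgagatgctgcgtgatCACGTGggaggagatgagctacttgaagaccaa
CTSD, chr11:1763942-1764001, minus strand, 47 bases before the start: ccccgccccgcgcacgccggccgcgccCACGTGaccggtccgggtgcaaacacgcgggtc
MCOLN1, chr19:7522556-7522623, plus strand, 41 and 14 bases before the start: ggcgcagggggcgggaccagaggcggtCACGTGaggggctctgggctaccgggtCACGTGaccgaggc
ATP6V0D1, chr16:67481184-67481243, minus strand, 59 bases before the start: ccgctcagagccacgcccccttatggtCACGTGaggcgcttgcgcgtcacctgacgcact
Starts are those of the RefSeq windows. The stretch of CTSD lies inside the span of that gene in GENCODE, chr11:1752752-1764573, and 23 of its bases are in GENCODE exons. A match describes letters only, and no binding was measured. The phases of the genes with a match differed. Of the 50 genes tested, 18 were higher in P7 than in all 3 other phases, as were 7.43% of all tested genes, and 12 of the 18 had a window, of which 5 held CACGTG (LAMP1, NEU1, CTSD, CD63 and CTSA), against 5 of the 23 other tested genes with a window. Those 5 were GALNS and GAA, highest in P15, MCOLN1, and CTSF and ATP6V0D1, with their highest means in P0. The longer TCACGTG occurred in 4 of the 12 windows and in 5 of the 23. A still longer element, with CACGTG at its centre and the same letters on both strands, went the other way. It occurred in none of the 12 and in 3 of the 23, those of GALNS, GAA and MCOLN1. No test was made of these counts.

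From P0 to P3, 9 of the 10 tested genes of membrane proteins rose and LAPTM4B fell, while over all tested genes 31.4% rose and 37.3% fell. The 10 had a median log2 fold change of 0.48, against -0.02 over all genes. LAMP1, LAMP2, SCARB2, NPC1, LAPTM4A and LAPTM5 are on the study's list, and LAMP3, CD63 and MCOLN1 are not. Of 22 other lysosomal membrane proteins and transporters, 8 rose and 10 fell in the same step, with a median of -0.02.

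LAMP1, the most abundant glycoprotein of the lysosomal membrane in many cells, read 8.62, 8.69, 8.63 and 8.65 in P0, 9.36, 9.36, 9.42 and 9.34 in P3, 10.07, 10.03, 10.08 and 10.07 in P7, and 8.41, 8.42, 8.36 and 8.47 in P15. No library of one phase overlapped those of another. It rose by 0.72 in P3 against P0 (SE 0.03, adjusted p = 2.3e-16, limma) and by 0.69 in P7 against P3 (SE 0.03, adjusted p = 1.6e-15, limma). From P7 to P15 it fell by 1.65 (SE 0.03, adjusted p = 1.6e-24, limma), to a level 0.23 below P0.

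LAMP2, its paralog and the receptor of chaperone-mediated autophagy, read 7.66, 7.87, 7.71 and 7.64 in P0, 8.21, 8.15, 8.25 and 8.15 in P3, 8.32, 8.38, 8.39 and 8.35 in P7, and 6.75, 6.73, 6.69 and 6.74 in P15. Its phases did not overlap either. Most of its rise lay in the first step, 0.47, with 0.17 in the second (SE 0.04, adjusted p = 0.00072, limma). The fall from P7 to P15 was 1.63 on the log2 scale, and P15 lay 0.99 below P0.

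LAMP3, an inducible family member, followed another course. It read 2.48, 2.54, 2.72 and 2.54 in P0, 4.02, 3.92, 3.78 and 3.98 in P3, 2.48, 2.39, 2.35 and 2.30 in P7, and 4.59, 4.54, 4.42 and 4.53 in P15. P3 and P15 were high, while P0 and P7 were low and overlapped. It rose by 1.36 from P0 to P3, the largest rise of the 50 genes in that step, fell by 1.54 between P3 and P7, and rose by 2.14 in the step to P15 (SE 0.07 in each, adjusted p = 5.5e-19 for the last, limma). P7 was 0.19 below P0 (adjusted p = 0.024, limma), a call that was lost without P0 replicate 3 (-0.14), P7 replicate 3 (-0.18) or P7 replicate 4 (-0.16), with a pseudocount of 5 (-0.11), after quantile normalization (-0.16) or with only P0 and P7 in the fit (-0.19).

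LAPTM5, a membrane protein best known from blood cells, where it lowers antigen receptors at the surface, had the largest change of the group. It read 6.30, 6.51, 6.30 and 6.32 in P0, 6.60, 6.54, 6.62 and 6.55 in P3, 7.76, 7.76, 7.90 and 7.77 in P7, and 0.75, 0.64, 0.64 and 0.57 in P15. The P15 libraries were far below the rest, and no phase overlapped another. After a rise of 1.22 from P3 to P7 it fell by 7.15 (SE 0.05, adjusted p = 2.5e-32, limma), and its mean CPM was 388 times higher in P7 than in P15. Macrophage and leukocyte markers were low or absent in every phase. Of 12 such markers only CD14 passed the filter (2.77 in P7 and 0.08 in P15, log2 means), AIF1, MARCO and TYROBP were at 0 in all libraries, PTPRC reached 0.057 CPM in 1 library, and the summed CPM of the list was 6.65 to 9.04 in P0, 2.39 to 2.70 in P3, 5.81 to 6.87 in P7 and 0.31 to 0.68 in P15.

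LAPTM4B, a related protein of the late endosome, read 7.88, 7.85, 7.90 and 7.84 in P0, 7.00, 6.93, 7.03 and 7.01 in P3, 7.54, 7.61, 7.63 and 7.59 in P7, and 8.05, 8.06, 7.93 and 8.05 in P15. It was lowest in P3 and highest in P15, without overlap. Its fall from P0 to P3 was 0.87 (SE 0.03, adjusted p = 7.2e-17, limma), opposite to LAPTM4A, which rose by 0.49 in that step.

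Among the other membrane genes, CD63, a tetraspanin, and SCARB2, the receptor that carries glucocerebrosidase to lysosomes, rose in both early steps and were highest in P7, at 9.46 ± 0.04 and 8.20 ± 0.03 (SD, n = 4 libraries). CD63 then fell by 1.75 and SCARB2 by 0.92. NPC1, which exports cholesterol, rose at each step, from 6.80 ± 0.06 to 7.34 ± 0.06, 7.48 ± 0.02 and 7.76 ± 0.03. MCOLN1, the calcium channel of the lysosome, was 4.24 ± 0.09 in P0 and 4.75 ± 0.02 in P3. P3 and P7 were not told apart for MCOLN1, with a difference of 0.03 (adjusted p = 0.59, limma), and it was lowest in P15, at 4.11 ± 0.04. Its difference from P0, -0.14, was not called without P0 replicate 4 (-0.10).

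**Figure D2:**
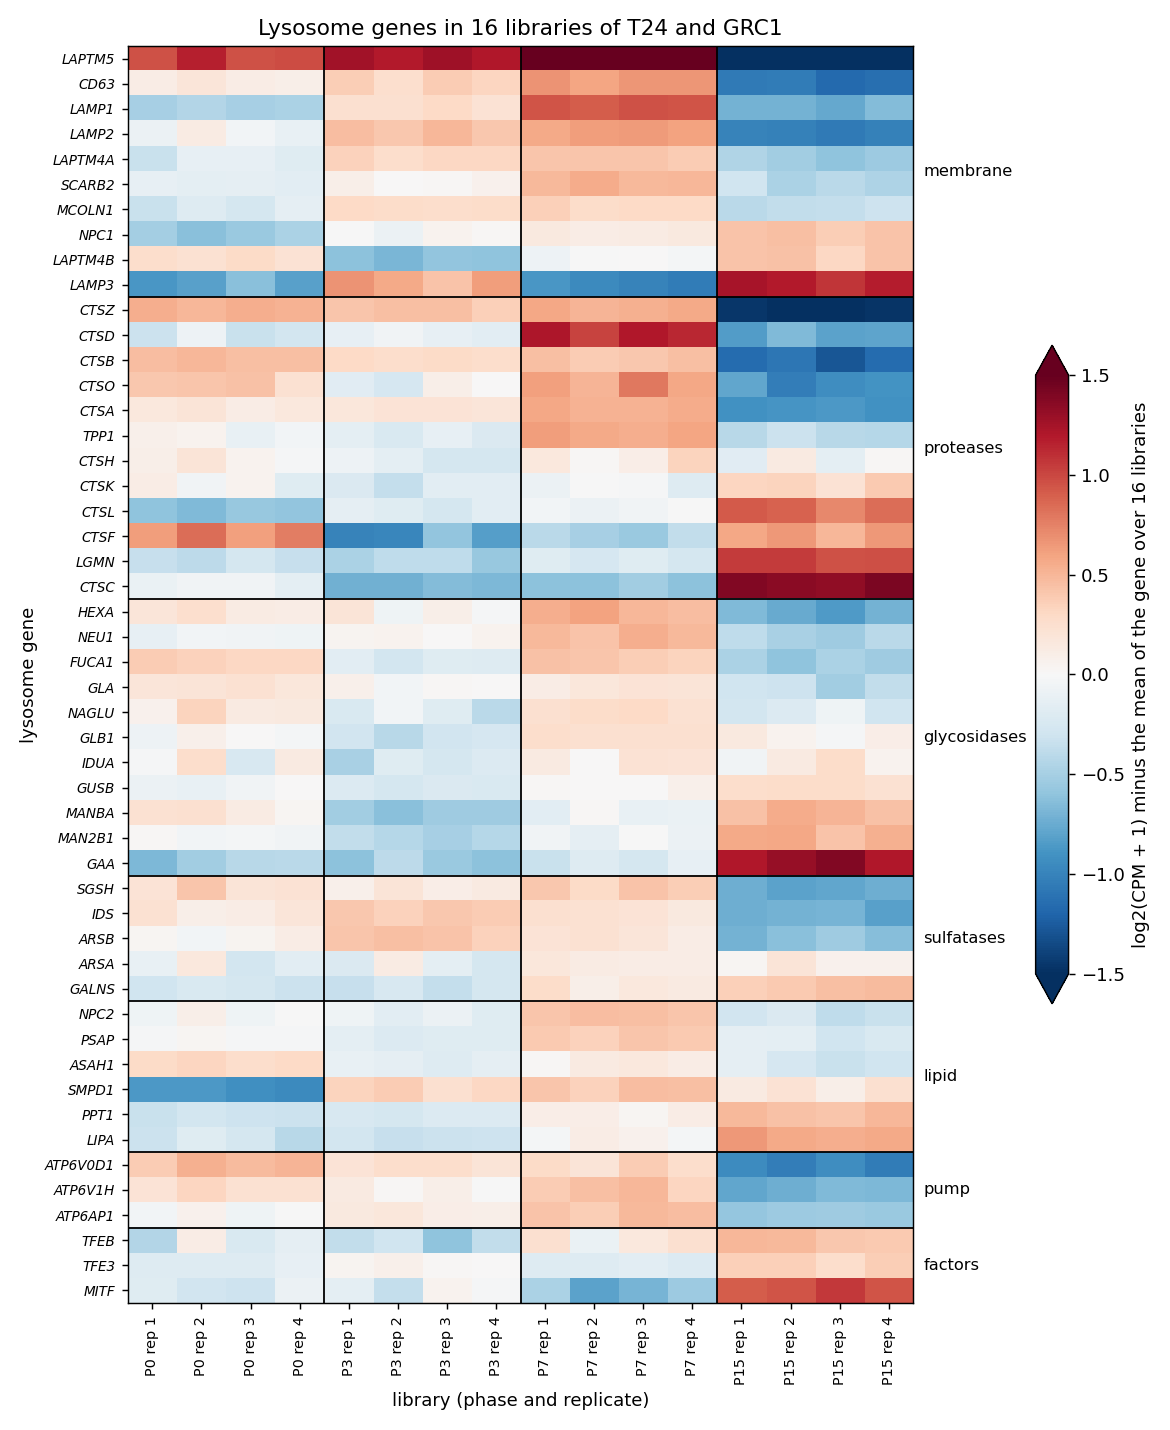
Log2 value of each of the 50 tested lysosome genes minus its mean over 16 libraries (colour, cut at 1.5 in both directions), with genes in rows grouped by role and libraries in columns grouped by phase. Most membrane genes were already raised in P3, glycosidases were low in P3 and higher in P7, and P15 divided the genes into a high and a low set; LAPTM5 in P15 lay beyond the colour range.

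Of 12 proteases, 8 fell and 2 rose from P0 to P3. Of 11 glycosidases, 8 fell and NEU1 rose, by 0.11. Over all tested genes 31.4% rose and 37.3% fell in that step. After quantile normalization the rise of NEU1 (0.08) and the falls of IDUA (-0.21) and of the protease CTSH (-0.15) were not called. The fall of the protease LGMN was not called without P0 replicate 3 (-0.09) or P3 replicate 4 (-0.08). From P3 to P7, 11 of the 12 proteases and all 11 glycosidases rose, and none fell, while 30.3% of all tested genes rose and 28.0% fell. Both comparisons use the P3 libraries, so a low P3 value enters each of them. P7 against P0, which does not use P3, gave 6 proteases higher and 2 lower, and 5 glycosidases higher and 1 lower, where 27.9% of all genes rose and 34.2% fell.

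CTSD, the main aspartic protease of the lysosome, read 6.98, 7.22, 6.96 and 7.02 in P0, 7.18, 7.24, 7.18 and 7.14 in P3, 8.51, 8.31, 8.50 and 8.43 in P7, and 6.46, 6.63, 6.49 and 6.51 in P15. P7 stood above all other libraries, P15 stood below them, and P0 and P3 overlapped. The rise from P3 to P7, 1.25 (SE 0.05, adjusted p = 9.1e-16, limma), was the largest of the 50 genes in that step and was followed by a fall of 1.92. P3 was 0.14 above P0 (adjusted p = 0.017, limma), which was not called without P0 replicate 1 (0.12), P0 replicate 3 (0.11) or P3 replicate 2 (0.12), without the filter (0.14) or after quantile normalization (0.10). In GENCODE, 48.0% of the exon bases of CTSD also lie in exons of other genes, on either strand. How reads from these bases were counted is not given, and their part in the CTSD values was not tested.

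TPP1, a tripeptidyl peptidase that is lost in a childhood neuronal storage disease, read 7.60, 7.58, 7.42 and 7.49 in P0, 7.38, 7.30, 7.40 and 7.31 in P3, 8.16, 8.10, 8.07 and 8.12 in P7, and 7.11, 7.20, 7.11 and 7.10 in P15. P7 was again the highest phase and P15 the lowest, without overlap. It was the only one of the 11 genes on the study's list that fell from P0 to P3, by 0.17 (SE 0.04, adjusted p = 0.00028, limma), before a rise of 0.77.

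CTSB, an abundant cysteine protease, read 9.91, 9.95, 9.90 and 9.90 in P0, 9.75, 9.71, 9.74 and 9.71 in P3, 9.90, 9.83, 9.85 and 9.90 in P7, and 8.29, 8.36, 8.17 and 8.29 in P15. CTSZ, a carboxypeptidase, read 8.86, 8.82, 8.86 and 8.84 in P0, 8.73, 8.77, 8.77 and 8.68 in P3, 8.90, 8.83, 8.85 and 8.89 in P7, and 6.86, 6.81, 6.76 and 6.85 in P15. Both were slightly lower in P3 than in P0 and P7 and far lower in P15. From P7 to P15 CTSZ fell by 2.05 (SE 0.03, adjusted p = 3.3e-26, limma) and CTSB by 1.59 (SE 0.03, adjusted p = 4.3e-23, limma). P7 and P0 overlapped, with differences of 0.02 for CTSZ and -0.04 for CTSB that were not called. CTSZ shares 31.7% of its exon bases with another gene.

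CTSC, which activates serine proteases of immune cells by trimming them, moved the other way in P15. It read 7.01, 7.05, 7.05 and 6.96 in P0, 6.39, 6.38, 6.45 and 6.43 in P3, 6.49, 6.49, 6.58 and 6.49 in P7, and 8.50, 8.46, 8.44 and 8.52 in P15. It fell by 0.61 from P0 to P3 and rose by 1.97 in P15 against P7 (SE 0.03, adjusted p = 3.7e-25, limma). The small step from P3 to P7, 0.10, was not called without P7 replicate 3 (0.08).

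CTSF, another cysteine protease, read 3.66, 3.87, 3.64 and 3.79 in P0, 2.02, 2.05, 2.44 and 2.20 in P3, 2.62, 2.53, 2.47 and 2.66 in P7, and 3.61, 3.68, 3.52 and 3.68 in P15. P0 and P15 were high and overlapped, and P3 and P7 were low. Its fall from P0 to P3, 1.56 (SE 0.09, adjusted p = 8.8e-14, limma), was the largest of the 50 genes in that step, and it rose by 0.39 and then 1.05.

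Of the remaining proteases, CTSL, an endopeptidase, and LGMN, which cuts after asparagine, had their highest means in P15, at 7.95 ± 0.09 and 6.89 ± 0.05 (SD, n = 4 libraries), with rises of 0.89 and 1.23 from P7. CTSA, which protects NEU1 and beta-galactosidase in a complex, and CTSO were highest in P7 and fell by 1.44 and 1.54. CTSH and CTSK were at low levels, with phase means of 2.43 to 2.77 and 1.17 to 1.71.

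NEU1, the sialidase that removes terminal sialic acid, read 6.18, 6.26, 6.24 and 6.23 in P0, 6.34, 6.35, 6.30 and 6.35 in P3, 6.79, 6.72, 6.84 and 6.78 in P7, and 5.92, 5.81, 5.77 and 5.89 in P15. No phases overlapped. Its larger rise lay in the step from P3 to P7, 0.45 (SE 0.04, adjusted p = 3.8e-10, limma), and P15 lay 0.94 below P7.

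MANBA, which removes mannose, read 4.47, 4.48, 4.37 and 4.28 in P0, 3.72, 3.62, 3.71 and 3.71 in P3, 4.09, 4.26, 4.14 and 4.15 in P7, and 4.69, 4.80, 4.76 and 4.68 in P15. P3 was the low phase and P15 the high one. It fell by 0.71 in P3 against P0 (SE 0.06, adjusted p = 9.7e-11, limma) and rose by 0.47 and 0.57 in the following steps.

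GAA, the glucosidase that degrades glycogen, read 2.93, 3.08, 3.18 and 3.20 in P0, 2.99, 3.21, 3.04 and 2.98 in P3, 3.27, 3.41, 3.34 and 3.48 in P7, and 4.80, 4.91, 4.99 and 4.80 in P15. P0 and P3 overlapped, P7 lay just above them and P15 far above. From P7 to P15 it rose by 1.50 (SE 0.07, adjusted p = 1.6e-15, limma), the largest rise among the glycosidases. In the same step HEXA, a hexosaminidase, fell by 1.27, FUCA1, a fucosidase, by 0.91 and GLA, a galactosidase, by 0.55, so that the 11 glycosidases split into 4 that rose, 6 that fell and IDUA, which was not called. Over all tested genes 46.3% rose and 40.1% fell in that step.

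**Figure D3:**
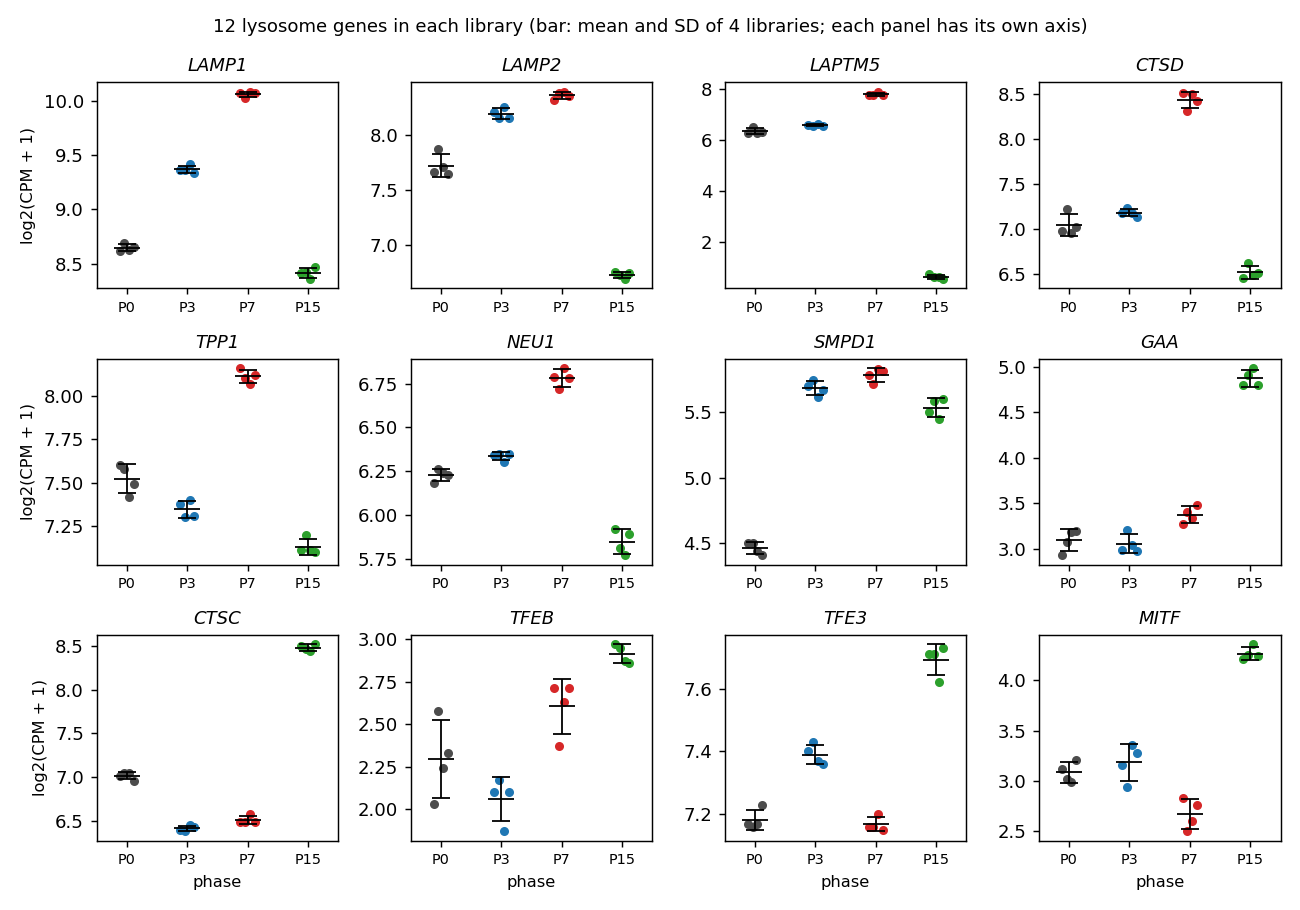
Log2 value in each library (points) for 12 of the lysosome genes by phase, with bars for the mean and SD of 4 libraries and a separate y axis in every panel. LAMP1, LAMP2, LAPTM5, CTSD, TPP1 and NEU1 were highest in P7 and lowest in P15, while GAA, CTSC, TFEB, TFE3 and MITF were highest in P15.

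The sulfatases, which remove sulfate from glycosaminoglycans and lipids, included ARSB and IDS, the 2 of the 50 genes that were higher in P3 than in all 3 other phases, where 10.3% of all tested genes were. ARSB read 4.64, 4.57, 4.66 and 4.73 in P0, 5.03, 5.06, 5.04 and 4.96 in P3, 4.82, 4.84, 4.79 and 4.72 in P7, and 3.91, 3.99, 4.08 and 3.98 in P15. P3 lay above and P15 below all other libraries, and P0 and P7 overlapped. ARSB rose by 0.37, fell by 0.23 (adjusted p = 0.00042, limma) and fell by 0.80. P7 was 0.14 above P0, which was not called without P0 replicate 2 (0.12). IDS rose by 0.23 and fell by 0.18 and 0.94, with 75.9% of its exon bases shared with other genes. GALNS rose by 0.47 from P3 to P7 and by 0.26 to P15, SGSH fell by 1.14 in the last step, and ARSA was not called in it (-0.04, adjusted p = 0.63, limma).

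SMPD1, the acid sphingomyelinase, which makes ceramide, changed most among the lipid genes. It read 4.50, 4.50, 4.44 and 4.41 in P0, 5.70, 5.74, 5.61 and 5.67 in P3, 5.78, 5.71, 5.83 and 5.81 in P7, and 5.50, 5.58, 5.45 and 5.60 in P15. P0 was the low phase, and the other phases lay well above it. It rose by 1.22 in P3 against P0 (SE 0.04, adjusted p = 3.2e-17, limma) and was still 1.07 above P0 in P15. The step from P3 to P7 was 0.10 (adjusted p = 0.051, limma) and was called without P0 replicate 2, P15 replicate 3, P3 replicate 2 or P7 replicate 2 (0.10 to 0.13). The step was also called with only genes above 1 CPM in all 16 libraries, with a pseudocount of 5, after quantile normalization or with only P3 and P7 in the fit (0.10 to 0.11).

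PSAP, the precursor of the saposins that help lipid hydrolases, and NPC2, which hands cholesterol to NPC1, were highest in P7, at 10.32 ± 0.03 and 6.89 ± 0.03 (SD, n = 4 libraries). LIPA, the acid lipase, and PPT1, a thioesterase, were highest in P15, at 7.03 ± 0.04 and 8.09 ± 0.04. ASAH1, the ceramidase that breaks down the product of SMPD1, was highest in P0, at 6.63 ± 0.03, and fell by 0.44 to P3, the step in which SMPD1 rose.

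The 3 tested proton pump subunits all fell from P7 to P15, ATP6V0D1 by 1.27, ATP6V1H by 1.12 and ATP6AP1 by 0.99 (adjusted p = 3.6e-19, 8.9e-18 and 2.9e-19, limma). Over all tested genes 40.1% fell in that step. ATP6AP1, an accessory subunit, and ATP6V1H, of the part in the cytosol, had been highest in P7, whereas ATP6V0D1, of the part in the membrane, had been highest in P0.

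RNA of all 3 transcription factors was higher in P15 than in all 3 other phases, as was that of 37.2% of all tested genes. TFEB read 2.03, 2.58, 2.24 and 2.33 in P0, 2.10, 2.17, 1.87 and 2.10 in P3, 2.71, 2.37, 2.63 and 2.71 in P7, and 2.97, 2.95, 2.87 and 2.86 in P15. P0 overlapped P3 and P7, and P15 lay above all other libraries. TFEB rose by 0.55 in P7 against P3 (SE 0.10, adjusted p = 7.9e-05, limma) and by 0.31 in P15 against P7 (SE 0.10, adjusted p = 0.0076, limma), the latter not called after quantile normalization (0.17). P7 was 0.31 above P0 (adjusted p = 0.011, limma), which was not called without P0 replicate 1 (0.22). The difference between P3 and P0, -0.23 (adjusted p = 0.045, limma), was lost without P0 replicate 2, 3 or 4, P3 replicate 1, 3 or 4, or P15 replicate 1, 2 or 4, with values of -0.25 to -0.14, and under 7 other settings, replicate blocks and quantile normalization among them (-0.23 to -0.12).

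TFE3 read 7.17, 7.16, 7.17 and 7.23 in P0, 7.40, 7.43, 7.37 and 7.36 in P3, 7.16, 7.16, 7.20 and 7.15 in P7, and 7.71, 7.71, 7.62 and 7.73 in P15. P7 overlapped P0 and differed from it by -0.02 (adjusted p = 0.69, limma). TFE3 fell by 0.22 between P3 and P7, then rose by 0.52 in the step to P15 (SE 0.03, adjusted p = 4e-14, limma).

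MITF read 3.12, 3.02, 2.99 and 3.21 in P0, 3.16, 2.94, 3.36 and 3.28 in P3, 2.83, 2.50, 2.60 and 2.76 in P7, and 4.21, 4.25, 4.36 and 4.24 in P15. It was lowest in P7, without overlap, and highest in P15. MITF fell by 0.51 between P3 and P7, then rose by 1.59 in the step to P15 (SE 0.09, adjusted p = 1.3e-14, limma). Thus in P7 TFEB was above P0, TFE3 was not told apart from it and MITF was below it, and P15 had the highest level of each. These are RNA levels, and where the proteins lay in the cell was not measured.

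Over all 50 tested genes, P3 against P0 gave 18 higher and 24 lower, with a median log2 fold change of -0.11, where 31.4% of all tested genes rose and 37.3% fell. P7 against P3 gave 41 higher and 5 lower, where 30.3% and 28.0% of all genes did, with a median of 0.32 against 0.01 over all tested genes. The 5 that fell were LAMP3, ARSB, IDS, TFE3 and MITF. P7 against P0 gave 31 higher and 8 lower, with a median of 0.24, where 27.9% and 34.2% of all genes did. P15 against P7 gave 18 higher and 30 lower, with a median of -0.51 against 0.05 over all tested genes, of which 46.3% rose and 40.1% fell. P15 against P0 gave 19 higher and 27 lower, where 45.3% and 40.9% of all genes did. Few of the changes reached 2-fold before P15. From P0 to P3, 2 genes rose (LAMP3 and SMPD1) and 1 fell (CTSF) by at least 2-fold, as did 1.95% and 2.51% of all genes. From P3 to P7, 2 rose (CTSD and LAPTM5) and 1 fell (LAMP3), against 0.996% and 0.845%. For P7 against P0 the counts were 4 and 1, against 1.85% and 1.52%. For P15 against P7 they were 6 and 13, against 13.4% and 12.1%, and for P15 against P0 they were 7 and 8, against 12.1% and 11.4%.

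The 39 tested genes outside the study's list were counted apart from the 11 on it. From P0 to P3, 8 rose and 23 fell among the 39, with a median of -0.17, and 10 rose and 1 fell among the 11, beside 31.4% and 37.3% of all tested genes. From P3 to P7, 31 of the 39 rose and 5 fell, beside 30.3% and 28.0% of all genes, and the median was again 0.32. In P7 against P0, 20 were higher and 8 lower, beside 27.9% and 34.2%, and the median was 0.11. In P15 against P7, 16 were higher and 21 lower, beside 46.3% and 40.1%, and the median was -0.20.

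**Figure D4:**
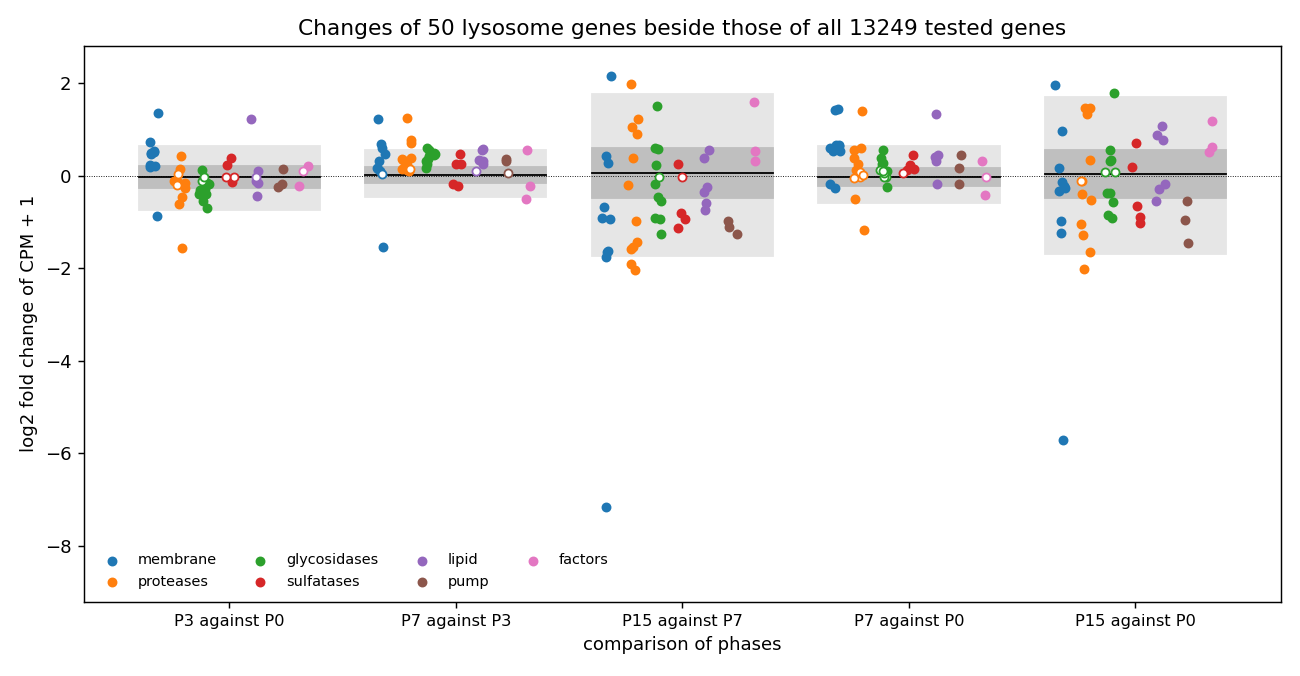
Log2 fold change of the 50 tested lysosome genes (points, coloured by role; open points were not called) in 5 comparisons of phases, beside the middle 90% (light bar), the middle 50% (dark bar) and the median (line) of all 13249 tested genes. From P3 to P7, 41 of the 50 lay above 0 and were called; the lowest point in both P15 comparisons is LAPTM5.

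The 18 genes (36.0% of 50) that were higher in P7 than in all 3 other phases, beside 7.43% of all tested genes, were LAMP1, LAMP2, CD63, SCARB2, LAPTM4A, LAPTM5, CTSA, CTSD, CTSO, TPP1, NEU1, HEXA, GLB1, SGSH, PSAP, NPC2, ATP6V1H and ATP6AP1. Without LAMP1 there were 17 of 49, and outside the study's list 10 of 39 (25.6%). The smallest of the differences was not called in some fits without 1 library. This held for LAPTM4A over P3 (0.10) without P3 replicate 2, 3 or 4 or P7 replicate 1, 2 or 3 (0.08 to 0.10), without the filter or without the variance trend, for SGSH over P0 (0.12) without P0 replicate 1, 3 or 4 or P7 replicate 1, 3 or 4 (0.09 to 0.12), without the filter, without the variance trend or with only P0 and P7 in the fit, and for CTSO over P0 (0.26) without P0 replicate 4 (0.21) or P7 replicate 3 (0.20) or without the filter. In all, 25 of the 50 genes were lower in P15 than in all 3 other phases, where 32.3% of all genes were, and 17 had their highest level in P15 by the same rule, where 37.2% of all genes did. In 9 of the 50 genes (18.0%), P7 was above P0 and P15 above P7, namely NPC1, CTSL, LGMN, GAA, GUSB, GALNS, LIPA, PPT1 and TFEB, as it was for 8.74% of all genes. Of these, LGMN over P0 (0.11) was not called without P0 replicate 2 or 4 or P7 replicate 1 or 3 (0.10 to 0.11) or without the filter, GUSB over P0 (0.09) without P0 replicate 1 or 2 or P7 replicate 1 or 4 (0.07 to 0.09) or with only P0 and P7 in the fit, and TFEB over P0 without P0 replicate 1, as given above.

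LAMP1 (ENSG00000185896, chr13:113297239-113323672 on GRCh38, plus strand) lies at the end of the long arm of chromosome 13 and was the only one of the 52 genes there. Its neighbours were therefore set beside it. Of the 15 tested genes that start within 2 Mb of it, 14 were higher in P7 than in P0, with a median log2 fold change of 0.85, and 14 were lower in P15 than in P7, with a median of -1.19. LAMP1 changed by 1.42 and -1.65 in these comparisons. Only ADPRHL1, at 1.43, rose as much as LAMP1 from P0 to P7.

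The pattern extended along the distal end. Of 41 other tested genes from 100 Mb onward, 39 were higher in P7 than in P0 (median 0.89) and 34 were lower in P15 than in P7 (median -0.99). Of the 180 tested genes nearer the centromere, 83 were higher and 74 lower in P7 than in P0 (median -0.01), and 61 were higher and 100 lower in P15 than in P7 (median -0.24). Over all tested genes, 27.9% were higher and 34.2% lower in P7 than in P0, and 46.3% and 40.1% in P15 than in P7. Among the nearest genes, CUL4A, a ubiquitin ligase scaffold, and PCID2, an mRNA export factor, rose by 1.08 and 1.00 from P0 to P7, and DCUN1D2 by 0.50. GRTP1, which starts 26.9 kb from LAMP1, went the other way, at -0.22 (adjusted p = 0.046, limma) from P0 to P7 and 2.69 from P7 to P15. DNA copy number was not measured, and its part in the level of LAMP1 was not tested.

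**Figure D5:**
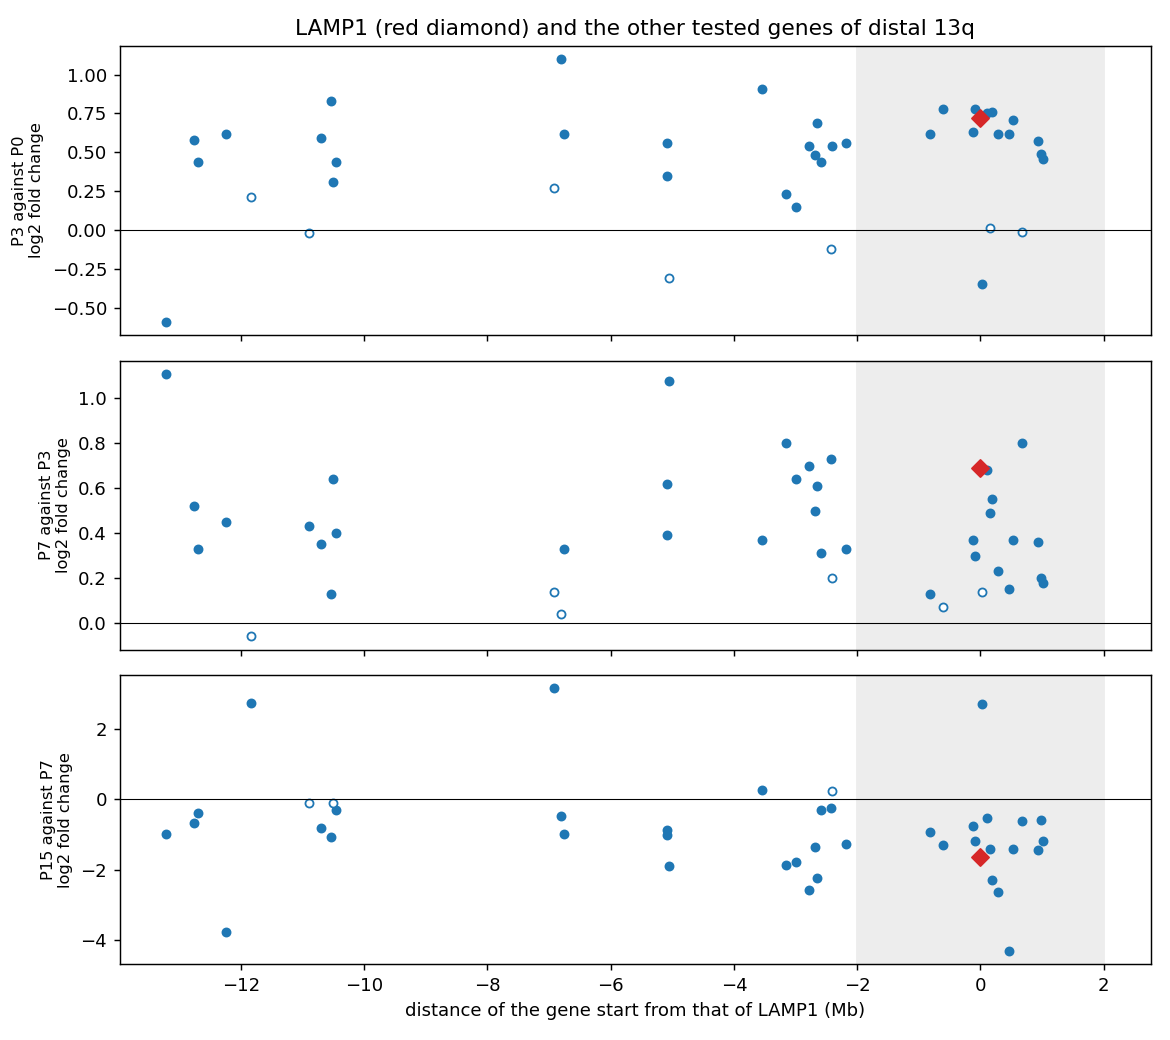
Log2 fold change (y axis) of LAMP1 and the other tested genes of distal 13q against the distance of each gene start from that of LAMP1 in Mb (x axis), for 3 successive comparisons; filled points were called, open points were not, and grey marks 2 Mb on each side. In P15 against P7, 14 of the 15 genes in the grey window lay below 0 and were called, beside 40.1% of all tested genes. LAMP1 was at -1.65.

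Other genes were set beside their neighbours in the same way, and the examples were chosen after their values were seen. The median of tested genes within 2 Mb was 0.09 for CTSD from P3 to P7, where CTSD rose by 1.25, and -0.12 for LAPTM5 from P7 to P15, where it fell by 7.15. For SMPD1 from P0 to P3 it was 0.08 beside 1.22, and for CTSC from P7 to P15 it was -0.08 beside 1.97. On the X chromosome, ATP6AP1 and IDS fell from P7 to P15 by about as much as their neighbours, -0.99 beside a median of -0.90 and -0.94 beside -1.10, and so did GLA, -0.55 beside -0.48. LAMP2 and TFE3, also on the X chromosome, did not, with -1.63 beside -0.37 and 0.52 beside 0.26 in that step. Changes near the median of their neighbours were also seen for ASAH1 from P0 to P3 (-0.44 beside -0.42) and, from P7 to P15, for NAGLU (-0.47 beside -0.48) and PPT1 (0.38 beside 0.36).

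Other genes of the pathway were counted on 6 lists with 128 tested genes. Of these, 69 rose and 15 fell from P3 to P7, where 30.3% and 28.0% of all tested genes did. In P7 against P0, 76 were higher and 20 lower, beside 27.9% and 34.2% of all genes, and in P15 against P7, 40 were higher and 76 lower, beside 46.3% and 40.1%. The lists were not alike from P3 to P7, with 5 higher and 4 lower of 15 other pump subunits (median 0.03), 6 higher and 5 lower of 20 sorting genes, and 14 higher and 1 lower of 22 other membrane proteins (median 0.19). Among 29 other lysosomal hydrolases and cofactors, 12 rose and 4 fell from P0 to P3, beside 31.4% and 37.3% of all genes, and 23 were higher and 2 lower in P7 than in P0. Some of these genes are also on the study's list, so their direction in P7 is not independent evidence. CTSW, a cysteine protease on that list, rose by 1.24 in that comparison, and GALC, the galactosylceramidase, fell by 1.84. From P7 to P15, CTSS, a cysteine protease of antigen presenting cells that is on the list too, fell by 6.16, from 6.55 ± 0.07 to 0.39 ± 0.08 (SD, n = 4 libraries). CPVL, a carboxypeptidase-like gene, fell by 4.03, while CTSV, a cysteine protease, and NAAA, an acid amidase, rose by 1.34 and 1.01.

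Of 22 other membrane proteins and transporters, 12 were higher and 5 lower in P7 than in P0, beside 27.9% and 34.2% of all tested genes. CTNS and SLC17A5 among them are on the study's list, so their direction in P7 is not independent evidence. OSTM1, a partner of the chloride exchanger of lysosomes, rose by 0.90 and TPCN1, a cation channel, fell by 0.68. Of 15 other pump subunits, 10 were higher and 2 lower in P7 than in P0. From P7 to P15, 3 of them rose and 11 fell, beside 46.3% and 40.1% of all genes, ATP6V1C1 by 1.68 and ATP6V0E1 by 1.63. Genes that sort enzymes to the lysosome had 9 of 20 higher and 4 lower in P7 than in P0. The mannose 6-phosphate receptors M6PR and IGF2R rose by 0.49 and 0.47, and GNPTAB, which makes the mannose 6-phosphate tag, rose by 1.03 from P7 to P15.

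Of 18 regulators of mTORC1 and TFEB, 9 were higher and 4 lower in P7 than in P0, beside 27.9% and 34.2% of all tested genes. RRAGD, a GTPase that brings TFEB to the lysosome, rose by 1.20 (SE 0.05, adjusted p = 1.7e-16, limma), from 4.59 ± 0.09 to 5.79 ± 0.03 (SD, n = 4 libraries). In P15 against P7, 3 of the 18 were higher and 11 lower, beside 46.3% and 40.1% of all genes. FNIP2, a partner of folliculin, fell by 1.46 and LAMTOR3, a Ragulator subunit, by 1.45. Of 24 autophagy genes, 13 were higher and 3 lower in P7 than in P0. BNIP3, a mitophagy receptor, rose by 1.66 and then fell by 3.10, whereas GABARAPL1 and MAP1LC3A, which coat autophagosomes, rose by 1.42 and 2.90 from P7 to P15.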

How the data were processed

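The authors aligned RNA-sequencing reads of 16 libraries to GRCh38 with STAR 2.6.1a (per the labels) and counted them on genes with featureCounts. The table the authors deposited holds log2 of CPM plus 1 with 2 decimals. Quantile normalization and median centring, also named in the methods, are not visible in these deposited values. The annotation release, the strand setting and how multi-mapping reads were handled are not given in the sources used here. All 16 libraries entered 1 limma model (version 3.58.1, R 4.3.3) with a term for each phase and a prior variance that depends on the level. The Benjamini-Hochberg adjustment covered the 13249 genes whose mean exceeded 1 CPM. The procedure was tested on simulated data. Coordinates and shared exon bases are those of GENCODE on GRCh38, and promoters those of RefSeq. The members, lists and tests were chosen with earlier results of these data known. Per-library values are given for LAMP1, LAMP2, NEU1, CTSD, LAPTM5, TFEB, TFE3 and MITF and for the 3 largest rises and falls of each comparison. Of each other list, the 2 largest rises and falls of P7 against P0 and of P15 against P7 could be named, as could the 5 genes nearest to LAMP1. A result that falls under this rule but concerns a withheld item is not reported here. Alternatives were other filters, pseudocounts and normalizations, no variance trend, the compared phases alone, replicate blocks, each library left out, and the counts without LAMP1, without the study's list and without genes that share over 20% of their exon bases.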

Additional observations from a re-analysis of the deposited data

Results flagged for a closer look

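Of 200 combinations of gene and phase, 12 had 1 library whose distance to its nearest neighbour took up more of the range of the 4 than Dixon's 95% limit; about 1 in 20 groups, 10 here, does so by chance. The ratio of that distance to the range follows each gene. In P0, replicate 2 was high for LAPTM5 (0.90), SGSH (0.87), PSAP (1.00) and ATP6V1H (0.83), the most for any library. Replicate 4 of P0 was low for CTSO (0.86) and high for TFE3 (0.86). In P3, replicate 2 was low for MANBA (0.90). In P7, replicate 3 was high for LAPTM5 (0.93) and CTSC (1.00), and replicate 1 for GLB1 (1.00). In P15, replicate 3 was low for LAPTM4B (0.92) and replicate 2 high for TPP1 (0.90). The deviations were small beside most differences between phases: PSAP read 9.96 in the deviating library and 9.91 in the others, and GLB1 read 6.57 beside 6.54.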

How the results depend on the processing

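Over the alternatives, 6392 values of single genes kept their direction and their side of the threshold, 86 lost the call, 17 gained it and none changed direction. With a 2-fold threshold the counts higher and lower were 2 and 1 for P3 against P0, 2 and 1 for P7 against P3, 6 and 13 for P15 against P7, 4 and 1 for P7 against P0 and 7 and 8 for P15 against P0, and 2 genes were higher in P7 than in all 3 other phases; this threshold keeps fewer genes by construction. Without the study's list, 8 genes were higher in P3 than in P0, 20 in P7 than in P0 and 10 in P7 than in all 3 other phases, and the medians were -0.17 for P3 against P0, -0.20 for P15 against P7, 0.11 for P7 against P0 and -0.12 for P15 against P0. With each library shifted to the same median, the median for P15 against P7 was -0.55 and that of the neighbours of LAMP1 -1.23; the cause was not tested. Leaving out 1 library gave 17 to 18 higher and 21 to 24 lower for P3 against P0, 39 to 42 and 5 for P7 against P3, 18 and 29 to 30 for P15 against P7, 28 to 31 and 7 to 8 for P7 against P0, 18 to 20 and 26 to 27 for P15 against P0, and 15 to 19 higher in P7 than in all 3 other phases. Without the genes that share over 20% of their exon bases, an alternative chosen after seeing the data, as were the medians without the study's list, 37 of 45 rose and 4 fell from P3 to P7 and 16 were higher in P7 than in all 3 other phases.

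The replicate numbers showed no clear pairing of libraries. Of 24 pairs with the same number in the descriptions, deviations correlated at -0.147 to 0.218, and 1 exceeded 0.1. Such correlations cannot show whether libraries with the same number were prepared together. With the replicate block, P3 against P0 gave 18 higher and 23 lower, TFEB being the call lost, and all other counts of the 5 comparisons were as without it. Some differences lost their call with a library left out or another setting. As given by the model of all 16 libraries, these reached -0.32 on the log2 scale (IDUA, P3 against P0). The standard errors of the genes named ran from 0.03 to 0.10.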
